A study of Rattus norvegicus with 12 samples.

Results

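The G1/S and DNA replication genes are a list of 42 rat genes whose products take a cell from late G1 into S phase or copy the genome once it is there. They were found in the deposited tables by gene identifier, keeping those with at least 10 counts summed over the 12 libraries. Rows were found for 40 of the 42 genes, out of 16924 genes in the tables, and all 40 passed both that minimum and the filter on low counts that left 10020 genes for testing. Tk1 and Chaf1a were not analysed here. The study asked how the surface beneath cardiac progenitor cells shapes their early transcriptome. Rat cardiac progenitor cells, all derived from a single clone, were sequenced in 4 groups of 3 libraries: cells on laminin, cells on fibronectin, cells on dishes without coating, and cells in suspension. The protocol given for all libraries is seeding at a density low enough to prevent contact between cells, then 2 h of culture with 0.1% fetal bovine serum, after growth in serum-containing medium with leukemia inhibitory factor, basic fibroblast growth factor, erythropoietin and glutathione. How the suspended cells were handled is not stated. Each library carries a batch label equal to its replicate number, so batches 1, 2 and 3 each hold 1 library of every group. With 1 clone as the source, p-values speak for the spread among batches of a cell line and say nothing of the spread among rats.

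Replication proceeds in steps that follow each other closely. In G1, the origin recognition complex with Cdc6 and Cdt1 loads the Mcm2 to Mcm7 helicase onto DNA. At the G1/S switch, cyclin E with its kinase and the E2F transcription factors release a wave of transcription, and Cdc45, the GINS complex and Mcm10 turn the loaded helicase on. Primase with polymerase alpha starts each new strand, Rpa coats the exposed single strand, the Rfc complex loads the Pcna ring, and Fen1 and Lig1 trim and seal the lagging strand fragments. Most heart muscle cells leave the cycle soon after birth, while progenitor lines such as this one are kept dividing in culture. In bulk RNA, fewer cells in S phase and less of a transcript in each cell cannot be told apart.

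Many genes of this list are textbook E2F targets, so their promoters were searched for E2F octamers in the RefSeq windows of assembly GRCr8, which run from 250 bases before to 50 bases after the start used there. The letters searched were TTTCCCGC, TTTGGCGC, TTTCGCGC and TTTGCCGC on both strands; matches on opposite strands can overlap. A window was found for 33 of the 40 genes, and 15 of them (45.5%) held an octamer, against 2.37% of the 27457 genes with a window and 4.46% of the 8226 tested genes with one. Among the origin recognition and licensing genes, 6 of 7 windows held one, Mcm2, Mcm3, Mcm5, Mcm6, Mcm7 and Cdt1. The pentamer CCAAT, searched on both strands, was found in 20 of the 33 (60.6%) and in 39.6% of all genes with a window. Windows are shown for the 4 genes that were called higher on laminin below, whole, and as stretches of 60 bases for Mcm2 and Mcm6, where octamers on opposite strands overlap. The overlapping octamers of Mcm2 and of Gins1 are the same letters on both strands (TTTCGCGC and TTTGGCGC), and those of Mcm6 differ, TTTGGCGC on one strand and TTTCGCGC on the other. Capitals mark the octamers.
Rfc3 (chr12:5836318-5836617, plus strand): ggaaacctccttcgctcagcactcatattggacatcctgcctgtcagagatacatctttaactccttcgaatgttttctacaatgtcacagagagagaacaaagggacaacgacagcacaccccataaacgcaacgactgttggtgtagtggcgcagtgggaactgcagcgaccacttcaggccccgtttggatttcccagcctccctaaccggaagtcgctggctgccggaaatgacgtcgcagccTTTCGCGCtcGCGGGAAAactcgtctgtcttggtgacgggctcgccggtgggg
Rpa2 (chr5:150260522-150260821, plus strand): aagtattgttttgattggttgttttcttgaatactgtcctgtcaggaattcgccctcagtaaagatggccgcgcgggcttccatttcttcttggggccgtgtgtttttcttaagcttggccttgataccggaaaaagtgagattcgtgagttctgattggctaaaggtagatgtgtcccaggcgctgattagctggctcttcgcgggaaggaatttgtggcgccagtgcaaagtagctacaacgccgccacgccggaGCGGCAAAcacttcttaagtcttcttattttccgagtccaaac
Gins1 (chr3:160184670-160184969, plus strand): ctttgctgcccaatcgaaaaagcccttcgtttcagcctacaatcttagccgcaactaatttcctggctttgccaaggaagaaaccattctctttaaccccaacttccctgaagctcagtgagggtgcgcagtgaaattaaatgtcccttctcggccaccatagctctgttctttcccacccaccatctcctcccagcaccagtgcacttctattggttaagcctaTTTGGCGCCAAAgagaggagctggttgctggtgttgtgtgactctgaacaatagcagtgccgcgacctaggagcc
Fen1 (chr1:216274347-216274646, minus strand): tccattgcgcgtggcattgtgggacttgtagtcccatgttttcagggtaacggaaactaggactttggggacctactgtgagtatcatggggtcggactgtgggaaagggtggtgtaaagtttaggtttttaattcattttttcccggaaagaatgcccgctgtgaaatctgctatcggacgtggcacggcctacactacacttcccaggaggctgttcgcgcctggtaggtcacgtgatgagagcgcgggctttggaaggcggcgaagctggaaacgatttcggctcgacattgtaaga
Mcm2 (chr4:122918075-122918134, minus strand): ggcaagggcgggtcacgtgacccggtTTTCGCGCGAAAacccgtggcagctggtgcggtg
Mcm6 (chr13:42404453-42404512, minus strand): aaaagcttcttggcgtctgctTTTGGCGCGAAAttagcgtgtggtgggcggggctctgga
In Rfc3 the octamers lay 3 bases before and 7 bases after the start, and in Gins1 a pair in opposite orientation lay 25 and 21 bases before it. Fen1 held none of the 4 octamers in its window. A match is a run of letters and no evidence of binding.

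Library totals ran from 15875160 to 20852160 counts, and levels are given as CPM, the count over the library total on a common scale. The lowest library count of any of the 40 genes was 330, for Ccne2 on the uncoated dish in batch 3. Libraries of the same batch deviated together from their group means, most of all the attached ones: among attached libraries that share a batch, 9 pairs in all, deviations correlated at 0.514 or more. The markers of the labelled cell type were present in part. Vimentin, collagen and other mesenchymal markers summed to between 7040 and 7450 CPM on laminin, 7124 and 7225 on fibronectin, 6842 and 7324 without coating and 6116 and 6944 in suspension, so laminin and fibronectin lay above suspension with no overlap. Most of each mesenchymal sum was vimentin (mean 5125 CPM over the 12 libraries), while Thy1 of the same list had 18 counts in all. Gata4 ranged from 74.5 to 98.4 CPM and Kit from 2.39 to 3.68 CPM, while Isl1 had no count and Tbx5 1 count in all. Of 5 cardiomyocyte markers, Myh7 and Nkx2-5 had no count; the list summed to between 5.08 and 5.89 CPM on laminin, 3.97 and 5.49 on fibronectin, 4.65 and 6.32 without coating and 1.62 and 2.17 in suspension, nearly all of it Tnnt2. The 4 blood cell markers summed to between 58.3 and 65.2, 56.0 and 63.3, and 50.7 and 59.2 CPM in the same 3 attached groups and to between 35.8 and 38.4 CPM in suspension, nearly all of it Cd14, with 3 counts of Ptprc in all. The sums of the endothelial, smooth muscle and cardiac progenitor markers in suspension overlapped those of every attached group. Nearly all of the endothelial sum was Flt1, with 59 counts of Pecam1, 10 of Cdh5 and 90 of Tek in all. The part of these differences in the results was not tested.

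Against suspension, attachment for 2 h moved few replication genes past the test when batches were not modelled, at about the share seen in all genes or less; with the batch as a block, more were higher on each surface, and at a larger share than among all genes. On laminin, Rfc3, Rpa2, Gins1 and Fen1 rose and Rrm2 fell, so 4 of 40 genes were higher and 1 was lower, beside 12.1% and 6.96% of all tested genes. On fibronectin, Rpa2 and Rfc3 rose and none fell, beside 6.61% and 3.06% of all genes. On uncoated dishes only Rfc3 rose and none fell, beside 8.48% and 4.1% of all genes. The test was edgeR's quasi-likelihood test on all 12 libraries with Benjamini-Hochberg adjustment over all genes at 0.05. Where none fell, Rrm2 was the only gene lower at an unadjusted p below 0.05, on fibronectin and on uncoated dishes alike; DESeq2 called none lower on fibronectin and Rrm2 lower on uncoated dishes. Among the 40 genes, DESeq2 called Rfc3, Rpa2, Gins1 and Fen1 higher and Rrm2 lower on laminin. It called Rfc3, Rpa2 and Gins1 higher on fibronectin, and Rfc3 and Rpa2 higher without coating. Of all tested genes DESeq2 called 12.5% higher and 9.63% lower on laminin, 8.37% and 4.79% on fibronectin, and 9.65% and 6.91% without coating. The median log2 fold change of the 40 genes was 0.11 on laminin, 0.09 on fibronectin and 0.10 without coating, beside -0.01, 0.00 and 0.00 for all tested genes. These 3 comparisons share the suspension libraries, so they are not independent of each other.

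With the batch as a block in the fit, more of the list passed, as did more of all genes. On laminin 16 of 40 genes were higher and 3 lower, beside 22.4% and 20.8% of all genes. On fibronectin 9 of 40 were higher and 3 lower, beside 16.6% and 12.1%. On uncoated dishes 13 of 40 were higher and 4 lower, beside 20.1% and 18.7%. The share higher was thus above that of all genes on each surface and the share lower below it, a difference that was not tested. A block gives every group the same batch shift, and the suspension library of batch 3 did not move as the attached libraries of batch 3 did, as shown further on. With batch 3 left out, and no block, Rfc3 and Rpa2 were still higher and Rrm2 lower on laminin (8.65% and 10.3% of all genes). No gene passed on fibronectin (4.36% of all genes higher and 4.94% lower). On uncoated dishes Pola1 was lower and none higher (6.72% of all genes lower and 5.32% higher). At an unadjusted p below 0.05 (edgeR) stood 7 of 40 on fibronectin and 9 of 40 without coating. The share of all genes at that unadjusted threshold is not given, so these counts are not set against all genes.

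**Figure D1:**
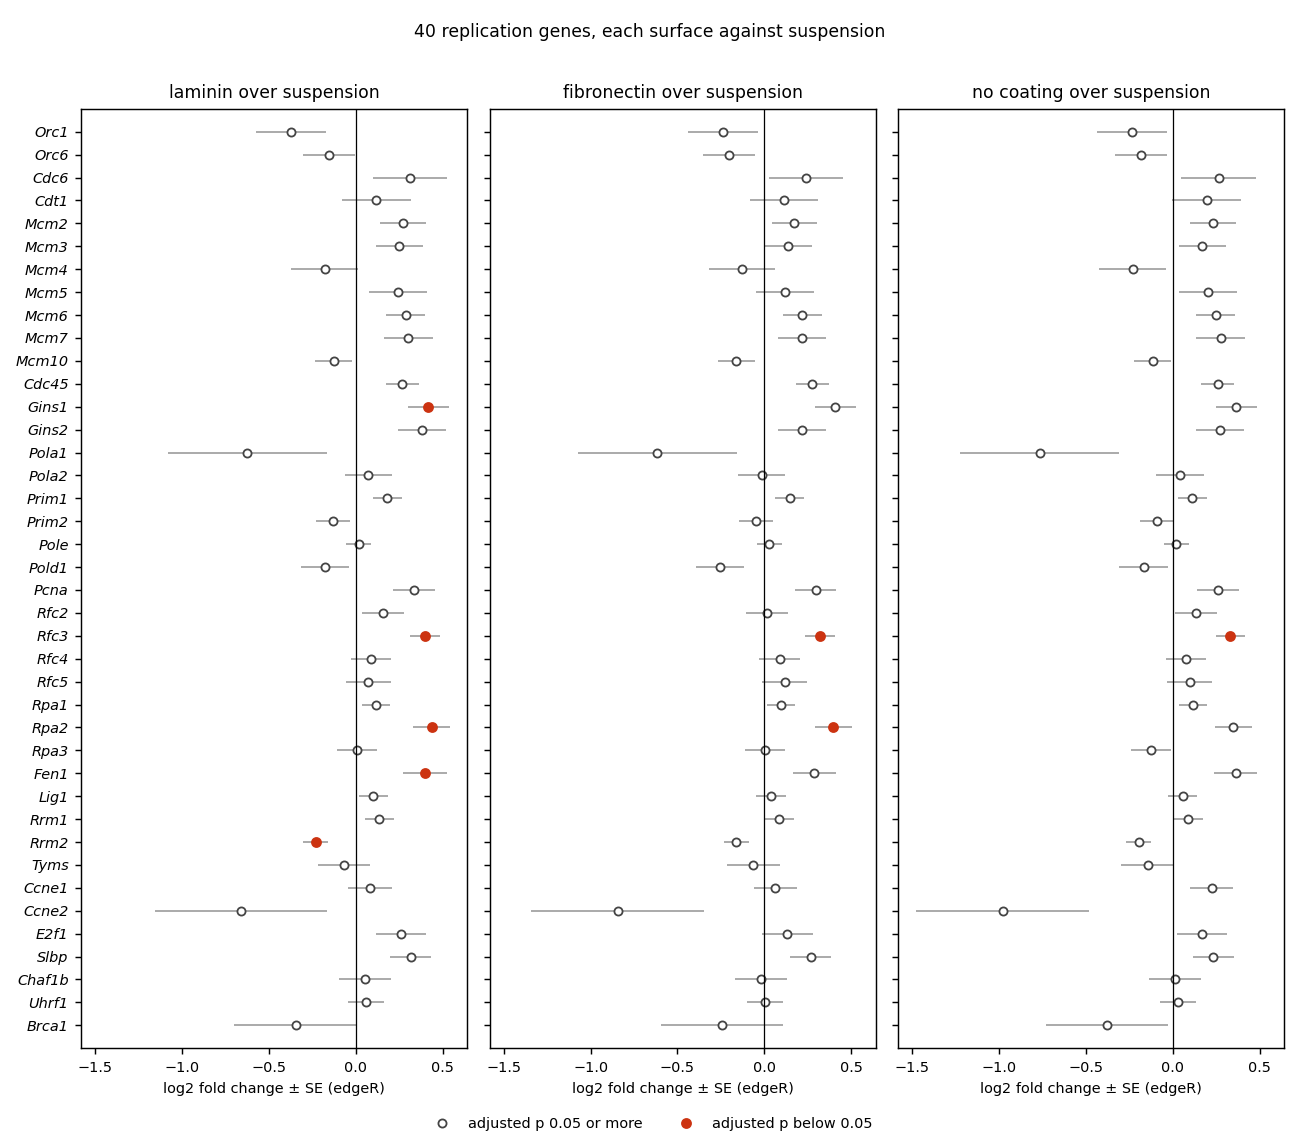
Log2 fold change of each of the 40 genes with its standard error from edgeR, in 3 panels for laminin, fibronectin and no coating over suspension, with genes ordered by role; filled points have an adjusted p below 0.05. Rfc3 is filled in all 3 panels, and the widest bars belong to Pola1, Ccne2 and Brca1.

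The largest group of calls lay among the 10 genes of the clamp, its loader, the single-strand binding complex and fragment processing, of which 3 rose on laminin, 2 on fibronectin and 1 without coating. Rfc3, a small subunit of the clamp loader, stood at 131, 137 and 153 CPM on laminin in batches 1, 2 and 3, at 124, 127 and 138 CPM on fibronectin, at 119, 128 and 151 CPM without coating, and at 116, 101 and 104 CPM in suspension. Every attached library lay above every suspension library. Its log2 fold change was 0.40 ± 0.09 (SE) on laminin, 0.32 ± 0.09 on fibronectin and 0.33 ± 0.09 without coating (edgeR, Benjamini-Hochberg adjusted p = 0.0111, 0.0396 and 0.0292). The call on laminin was lost at an adjusted p of 0.0511 without suspension replicate 3. On fibronectin it was lost without suspension 2 or 3 or any fibronectin library, with an adjusted p of up to 0.154, and without coating it was lost without replicate 2 or 3 of either group, up to 0.112. With batch 3 left out the changes were 0.33 ± 0.08, 0.26 ± 0.08 and 0.23 ± 0.08 (adjusted p = 0.0225, 0.0724 and 0.0925, edgeR).

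Rpa2, the middle subunit of the single-strand binding trimer, stood at 94.4, 112 and 115 CPM on laminin, at 87.6, 105 and 113 CPM on fibronectin, at 86.8, 103 and 109 CPM without coating, and at 76.4, 79.6 and 81.7 CPM in suspension. Attached and suspended libraries did not overlap on any surface, and in each attached group batch 1 was the lowest. Its log2 fold change was 0.44 ± 0.11 on laminin and 0.40 ± 0.11 on fibronectin, both called, and 0.35 ± 0.11 without coating, not called (edgeR, Benjamini-Hochberg adjusted p = 0.0182, 0.0389 and 0.0549); with the batch as a block all 3 were called (adjusted p = 0.00043, 0.000997 and 0.00185). The laminin call was lost without any 1 suspension library, laminin 2 or laminin 3, with adjusted p between 0.0516 and 0.0589, and the fibronectin call without any 1 suspension library, fibronectin 2 or fibronectin 3, up to 0.157. The other subunits of the trimer did not pass on any surface: on laminin, the log2 fold change was 0.12 ± 0.08 for Rpa1, the largest, and 0.01 ± 0.11 for Rpa3, the smallest (adjusted p = 0.312 and 0.967, edgeR). The difference between subunits was not tested.

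Fen1, the nuclease that trims RNA-primed flaps on the lagging strand, stood at 103, 133 and 139.9 CPM on laminin, at 97.2, 121 and 121 CPM on fibronectin, at 103, 127 and 132 CPM without coating, and at 89.2, 98.4 and 97.1 CPM in suspension. Laminin and uncoated libraries all lay above suspension, and fibronectin batch 1 lay inside the suspension range. The log2 fold change was 0.40 ± 0.13 on laminin, called, and 0.29 ± 0.13 on fibronectin and 0.36 ± 0.13 without coating, not called (edgeR, Benjamini-Hochberg adjusted p = 0.0480, 0.170 and 0.0806); with the batch as a block all 3 were called (0.000828, 0.00584 and 0.00176). The laminin call was lost without any 1 suspension library, laminin 2 or laminin 3, with adjusted p between 0.0871 and 0.146, and with batch 3 left out (0.138). Pcna, the sliding clamp, stood at 569, 658 and 559 CPM on laminin, at 479, 628 and 596 CPM on fibronectin, at 525, 632 and 518 CPM without coating, and at 438, 491 and 490.2 CPM in suspension. All attached libraries but fibronectin batch 1 exceeded the suspension range. Its log2 fold changes of 0.33 ± 0.12, 0.30 ± 0.12 and 0.26 ± 0.12 missed the threshold (edgeR, Benjamini-Hochberg adjusted p = 0.0734, 0.144 and 0.164) and were called with the batch as a block (0.00783, 0.0196 and 0.0254). The other loader subunits Rfc2, Rfc4 and Rfc5 and the nick-sealing ligase Lig1 had log2 fold changes between 0.01 and 0.16 on the 3 surfaces, and none passed with or without the block.

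**Figure D2:**
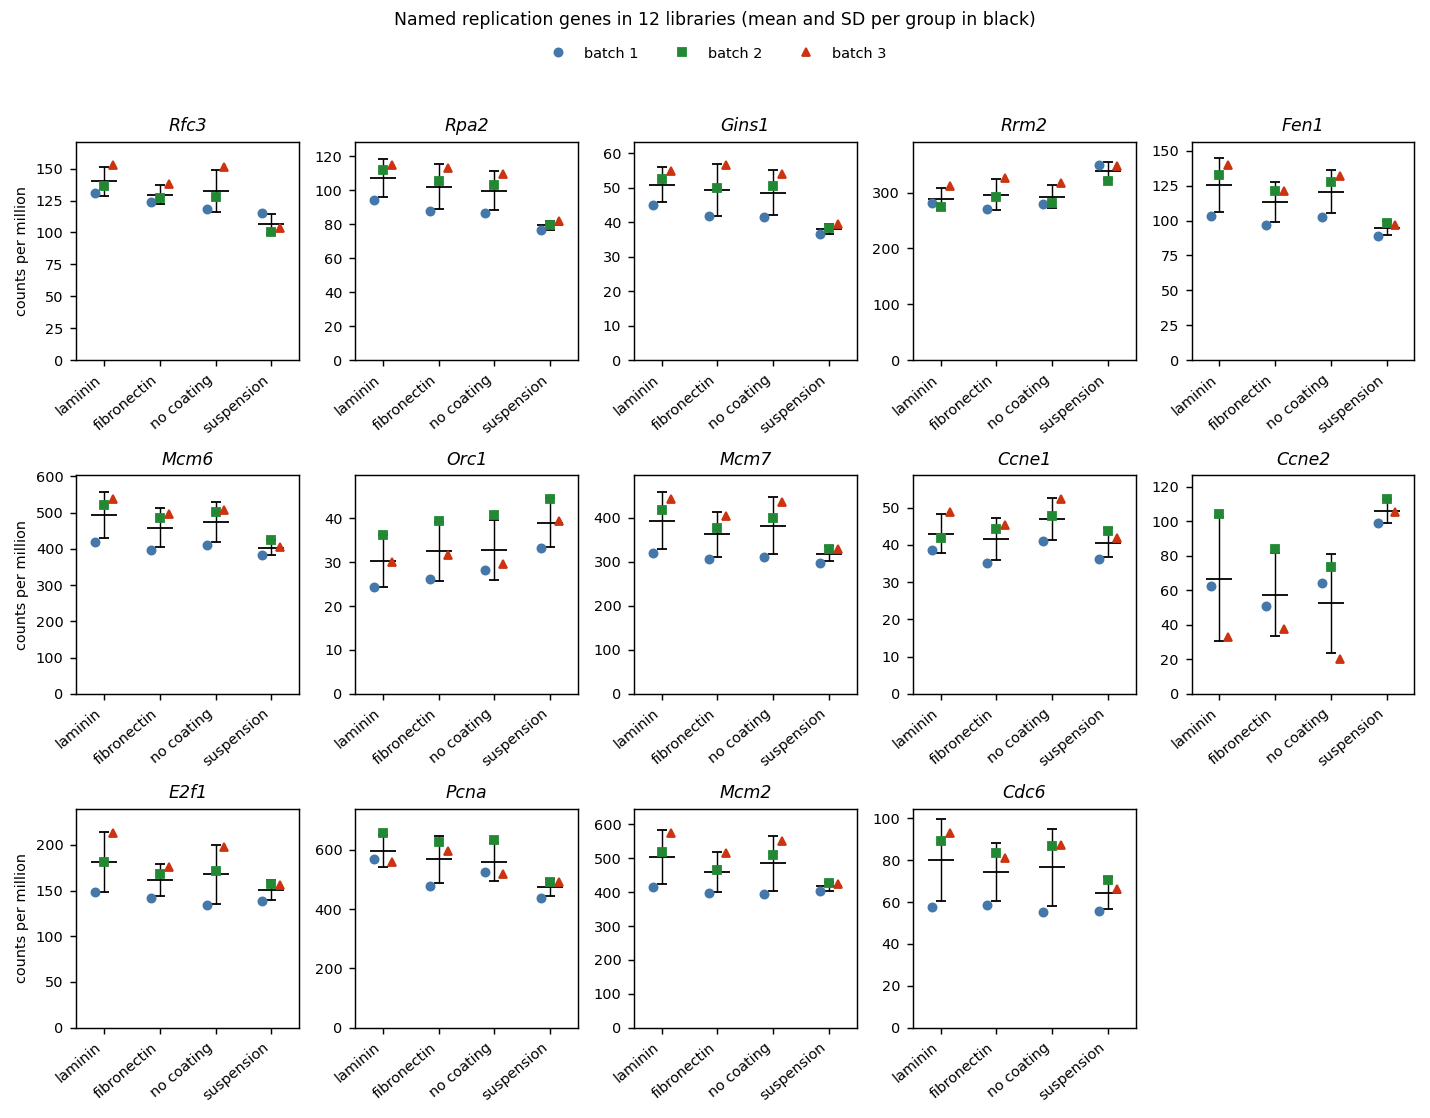
CPM (vertical axes, from 0) of 14 named genes in the 12 libraries, with symbols for batches and black bars for the group mean and SD (n = 3). Rfc3, Rpa2 and Gins1 lie above suspension in all 9 attached libraries, while for Mcm2, Mcm6, Mcm7, Cdc6 and E2f1 the attached batch 1 libraries sit near the suspension level.

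Of the 4 helicase activation genes, 1 rose, on laminin. Gins1, a subunit of the GINS complex that joins Cdc45 and the Mcm ring in the running helicase, stood at 45.1, 52.6 and 54.8 CPM on laminin, at 41.7, 49.9 and 56.6 CPM on fibronectin, at 41.4, 50.5 and 53.9 CPM without coating, and at 36.5, 38.1 and 39.5 CPM in suspension. No attached library reached down to the suspension range. Its log2 fold change was 0.42 ± 0.12 on laminin, called, and 0.41 ± 0.12 on fibronectin and 0.37 ± 0.12 without coating, not called (edgeR, Benjamini-Hochberg adjusted p = 0.0326, 0.0534 and 0.0640); with the batch as a block all 3 were called (0.00132, 0.00229 and 0.00330). The laminin call was lost without any 1 suspension library, laminin 2 or laminin 3, with adjusted p between 0.0806 and 0.0952, and with batch 3 left out (0.0546). Cdc45 averaged 55.7 ± 6.43, 54.8 ± 5.73 and 54.8 ± 5.19 CPM on laminin, on fibronectin and without coating and 46.3 ± 1.63 CPM in suspension (SD, n = 3 each), with adjusted p of 0.0727, 0.0925 and 0.0984 by edgeR, and was called on all 3 surfaces with the block. Gins2, another GINS subunit, was called on laminin with the block alone. Mcm10 was the member of this group with negative log2 fold changes, from -0.16 to -0.12, none of them called.

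The 10 origin recognition and licensing genes held no call on any surface, although 7 of the 10 had a positive log2 fold change on each. Mcm2, a subunit of the replicative helicase, stood at 417, 518 and 575 CPM on laminin, at 399, 466 and 514 CPM on fibronectin, at 394, 509 and 551 CPM without coating, and at 403, 426 and 423 CPM in suspension. Batches 2 and 3 of every attached group lay above suspension and batch 1 did not. Its log2 fold changes were 0.27 ± 0.13, 0.17 ± 0.13 and 0.23 ± 0.13 (edgeR, Benjamini-Hochberg adjusted p = 0.164, 0.419 and 0.243); with the block they were called on laminin and without coating (0.0124 and 0.0267). Mcm6 stood at 419, 521 and 538 CPM on laminin, at 395, 486 and 495 CPM on fibronectin, at 410.3, 503 and 508 CPM without coating, and at 382, 424 and 404 CPM in suspension, and Mcm7 at 319.8, 418 and 443 CPM, 306, 378 and 403 CPM, 312, 399.9 and 436 CPM and, in suspension, 298, 329 and 329 CPM. Both helicase subunits repeated the pattern of Mcm2, with attached batch 1 inside the suspension range. Their log2 fold changes lay between 0.22 and 0.30, not called, and all were called with the block (edgeR, Benjamini-Hochberg adjusted p of 0.00236, 0.0119 and 0.00576 for Mcm6 and 0.00383, 0.0223 and 0.00717 for Mcm7 on laminin, on fibronectin and without coating). Mcm3 and Mcm5, also of this ring, had log2 fold changes between 0.12 and 0.25, not called, and were called with the block on laminin (adjusted p = 0.00725 and 0.0134, edgeR) and without coating (0.0375 and 0.0293).

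Mcm4, a further subunit of the same helicase, stood at 431, 467 and 312 CPM on laminin, at 382, 476 and 372 CPM on fibronectin, at 413, 447 and 293 CPM without coating, and at 437, 479 and 459 CPM in suspension. The attached batch 3 libraries were the lowest, and its log2 fold changes of -0.18, -0.13 and -0.23 (SE 0.19 each) were not called with or without the block. Cdc6, a helicase loading factor, stood at 57.6, 89.2 and 93.1 CPM on laminin, at 58.7, 83.6 and 80.9 CPM on fibronectin, at 55.4, 86.7 and 87.5 CPM without coating, and at 55.8, 70.6 and 66.4 CPM in suspension. Attached batch 1 lay close to the lowest suspension library and batches 2 and 3 lay above all 3, with adjusted p of 0.309, 0.491 and 0.403 by edgeR (0.0115, 0.0390 and 0.0261 with the block). Orc1, the largest subunit of the origin recognition complex, stood at 24.4, 36.3 and 30.0 CPM on laminin, at 26.2, 39.5 and 31.8 CPM on fibronectin, at 28.2, 40.8 and 29.7 CPM without coating, and at 33.3, 44.5 and 39.4 CPM in suspension. The groups overlapped, yet in each batch every attached library was below the suspension library of that batch. Its log2 fold changes were -0.37 ± 0.20, -0.24 ± 0.20 and -0.23 ± 0.20 (edgeR, Benjamini-Hochberg adjusted p = 0.207, 0.475 and 0.434) and were called with the block (0.00360, 0.0327 and 0.0270). Orc6, another subunit, had log2 fold changes between -0.20 and -0.16, and the loading factor Cdt1 between 0.11 and 0.20, none called.

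The 6 polymerase and primase genes held no call. Pola1, the catalytic subunit of polymerase alpha, stood at 156, 186 and 70.3 CPM on laminin, at 149.9, 175 and 81.1 CPM on fibronectin, at 159, 158 and 50.6 CPM without coating, and at 209, 215 and 215 CPM in suspension. All 9 attached libraries were below all 3 suspension libraries, and the 3 attached batch 3 libraries were far below the other 6. The log2 fold changes were -0.62 ± 0.46, -0.62 ± 0.46 and -0.77 ± 0.46 (edgeR, Benjamini-Hochberg adjusted p = 0.345, 0.408 and 0.262). With batch 3 left out they were -0.30 ± 0.10, -0.34 ± 0.10 and -0.38 ± 0.10, called without coating (adjusted p = 0.0644, 0.0617 and 0.0385), and with the block they were called on laminin and without coating (0.0481 and 0.0270). Its partner subunit Pola2 had log2 fold changes between -0.02 and 0.07. Prim1, the catalytic primase subunit, was called on laminin with the block alone (0.18 ± 0.06, adjusted p = 0.0413, edgeR). Prim2, the other primase subunit, Pole and Pold1, the catalytic subunits of polymerases epsilon and delta, had log2 fold changes between -0.25 and 0.03 and were not called with or without the block.

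Of the 3 genes for deoxynucleotide supply, Rrm2 fell on laminin. Rrm2, the small subunit of ribonucleotide reductase whose level follows the cell cycle, stood at 281, 275 and 311 CPM on laminin, at 271, 292 and 326 CPM on fibronectin, at 280.1, 281 and 316 CPM without coating, and at 349, 321 and 348 CPM in suspension. Laminin and uncoated libraries all lay below suspension, and fibronectin batch 3 reached into its range. The log2 fold change was -0.23 ± 0.07 on laminin, called, and -0.16 ± 0.07 and -0.20 ± 0.07 on fibronectin and without coating, not called (edgeR, Benjamini-Hochberg adjusted p = 0.0452, 0.175 and 0.0901); with the block all 3 were called (0.00525, 0.0311 and 0.0121). The laminin call was lost on leaving out any 1 of the 6 libraries, with adjusted p between 0.0518 and 0.137, and kept with batch 3 left out (0.0320). Rrm1, the large subunit of the same enzyme, had log2 fold changes between 0.09 and 0.14, and Tyms, which makes thymidylate, between -0.14 and -0.06, none called. With batch 3 left out the values for Tyms were 0.11, 0.04 and 0.03 on laminin, on fibronectin and without coating, on the other side of 0 and not called.

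The 3 G1/S switch genes held no call. Ccne1, a cyclin E, stood at 38.5, 41.8 and 48.8 CPM on laminin, at 35.0, 44.2 and 45.3 CPM on fibronectin, at 41.1, 47.7 and 52.4 CPM without coating, and at 36.2, 43.9 and 41.8 CPM in suspension, with every attached group overlapping suspension. Its log2 fold changes were 0.08 ± 0.12, 0.06 ± 0.12 and 0.22 ± 0.12 (edgeR, Benjamini-Hochberg adjusted p = 0.655, 0.774 and 0.230; called without coating with the block, 0.0239). Ccne2, the other cyclin E, stood at 62.2, 104 and 33.2 CPM on laminin, at 51.1, 83.8 and 37.6 CPM on fibronectin, at 64.1, 73.4 and 19.9 CPM without coating, and at 99.1, 113 and 105 CPM in suspension. Laminin batch 2 alone reached the suspension range, and attached batch 3 was again the lowest. Its log2 fold changes of -0.66 ± 0.49, -0.84 ± 0.50 and -0.98 ± 0.50 were not called (adjusted p = 0.354, 0.300 and 0.199, edgeR), nor were those without batch 3, -0.34 ± 0.25, -0.61 ± 0.25 and -0.59 ± 0.25; with the block it was called on fibronectin and without coating (0.0424 and 0.0184). The difference between the paralogs was not tested. E2f1, the activator of the G1/S wave, stood at 148, 182 and 213 CPM on laminin, at 142, 168 and 175 CPM on fibronectin, at 134, 172 and 198 CPM without coating, and at 139, 158 and 156 CPM in suspension. Attached batch 1 lay within or below the suspension range and batches 2 and 3 lay above all of them, with log2 fold changes of 0.26 ± 0.15, 0.13 ± 0.15 and 0.17 ± 0.15, not called (adjusted p = 0.218, 0.582 and 0.436, edgeR) and called on laminin with the block (0.0151).

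Among the chromatin, histone mRNA and repair genes none was called. Slbp, which binds the stem-loop at the end of replication-dependent histone mRNAs, averaged 240.2 ± 16.2, 227 ± 35.1 and 224 ± 27.4 CPM on laminin, on fibronectin and without coating and 193 ± 7.94 CPM in suspension (SD, n = 3 each), and was called on laminin with the block (adjusted p = 0.0860 without it and 0.0265 with it, edgeR). Chaf1b, a subunit of the chromatin assembly factor CAF-1, and Uhrf1, which recognises hemimethylated DNA behind the fork, had log2 fold changes between -0.02 and 0.06. Brca1, a homologous recombination factor, averaged 54.0 ± 17.5, 56.8 ± 18.9 and 52.0 ± 21.2 CPM in the attached groups and 69.0 ± 2.20 CPM in suspension. For Brca1 the log2 fold changes of -0.35, -0.24 and -0.38 were -0.07, 0.00 and -0.04 with batch 3 left out.

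Set against the suspension library of the same batch, the list stood lower in batch 1 than in batches 2 and 3 on every surface. The median log2 ratio of the 40 genes in batches 1, 2 and 3 was 0.02, 0.15 and 0.19 on laminin, -0.11, 0.11 and 0.11 on fibronectin, and -0.06, 0.12 and 0.16 without coating. The same medians over all tested genes with counts in every library were -0.05, 0.02 and 0.04, then -0.09, 0.01 and 0.00, then -0.07, 0.01 and 0.05. On laminin 17 genes were higher in all 3 batches and 7 lower in all 3, beside 30.1% and 31% of all genes. On fibronectin 11 were higher and 9 lower in all 3 batches (25.4% and 34.4% of all genes), and without coating 11 were higher and 7 lower (25.9% and 32.1%). Mcm6, Mcm7, Cdc45, Gins1, Prim1, Pcna, Rfc3, Rpa2 and Fen1 were higher in all 9 of these ratios. Orc1, Orc6, Mcm4, Pola1, Prim2, Rrm2 and Ccne2 were lower in all 9. The 3 surfaces share the suspension library of each batch, so the 9 ratios are not independent. The share of all genes with the same sign in all 9 is not given, so this is no mark of the list. With TMM-scaled totals in place of library totals, a choice made after seeing the data, the genes higher in all 3 batches numbered 19, 19 and 17 on the 3 surfaces (31.8%, 32.2% and 31.3% of all genes) and those lower 7, 8 and 7 (30.7%, 30.5% and 29.1%). Among all genes, more were lower than higher on each surface by library totals, and more higher than lower by TMM-scaled totals.

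**Figure D3:**
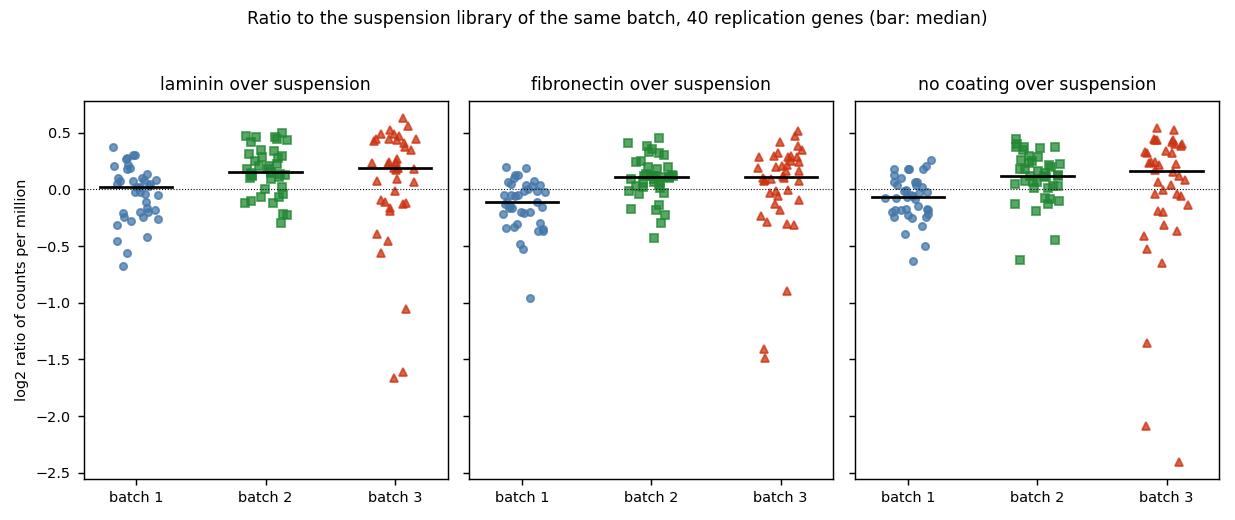
Log2 ratio of CPM to the suspension library of the same batch (vertical axis) for the 40 genes, in panels for laminin, fibronectin and no coating, by batch; bars are medians. In batch 1 the medians lie at 0.02, -0.11 and -0.06, in batches 2 and 3 between 0.11 and 0.19, and the points far below 0 in batch 3 are Pola1, Ccne2 and Brca1.

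Batch 3 of the attached cells differed from batches 1 and 2 in several of these genes. The 3 attached batch 3 libraries are 1 batch set against 2, so what follows is a description with no test. For 11 of the 40 genes the 3 libraries lay wholly outside the range of the 6 attached libraries of batches 1 and 2, beside 40.6% of all tested genes, so such a gap is no mark of this list. They lay above it for Cdc45, Gins1, Rfc3, Rfc5, Rpa1 and Rrm2, 6 genes, and below it for Pola1, Ccne2, Brca1, Mcm4 and Tyms, 5 genes. Of the 10009 tested genes with counts in every library, 2033 lay above and 2029 below. Pola1 averaged 67.3 ± 15.5 CPM in attached batch 3 (SD, n = 3) and 164 ± 13.4 CPM in attached batches 1 and 2 (n = 6), a log2 ratio of -1.28. Ccne2 averaged 30.2 ± 9.18 and 73.2 ± 18.8 CPM in the same sets (-1.28), and Brca1 33.6 ± 5.26 and 64.6 ± 7.44 CPM (-0.94). Mcm4 and Tyms had log2 ratios of -0.42 and -0.32.

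The other 35 genes had log2 ratios between -0.16 for Rfc4 and 0.34 for Cdt1, most of them above 0. The median ratio of the 40 genes was 0.18, beside 0.08 over all genes, and 25 of 40 (62.5%) were above 0, beside 58.7% of all genes. The suspension library of batch 3 did not share these shifts. Its log2 ratio to the mean of the other suspension libraries ranged from -0.12 to 0.12 over the 40 genes, and was 0.02 for Pola1, -0.01 for Ccne2 and 0.08 for Brca1.

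**Figure D4:**
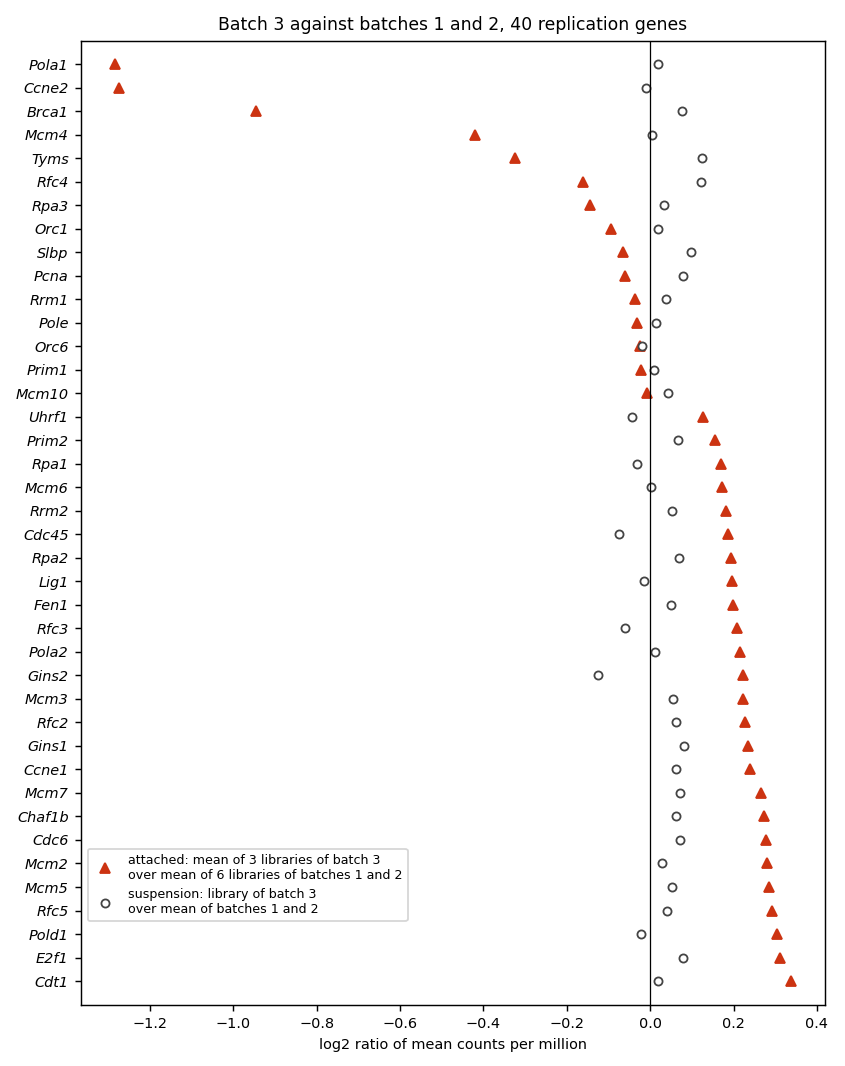
Log2 ratio of mean CPM in batch 3 over batches 1 and 2 (horizontal axis) for the 40 genes in order of size, with triangles for attached libraries (3 against 6) and circles for suspension (1 against 2). Pola1, Ccne2 and Brca1 lie near -1 among the triangles, while all circles lie between -0.12 and 0.12.

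**Figure D5:**
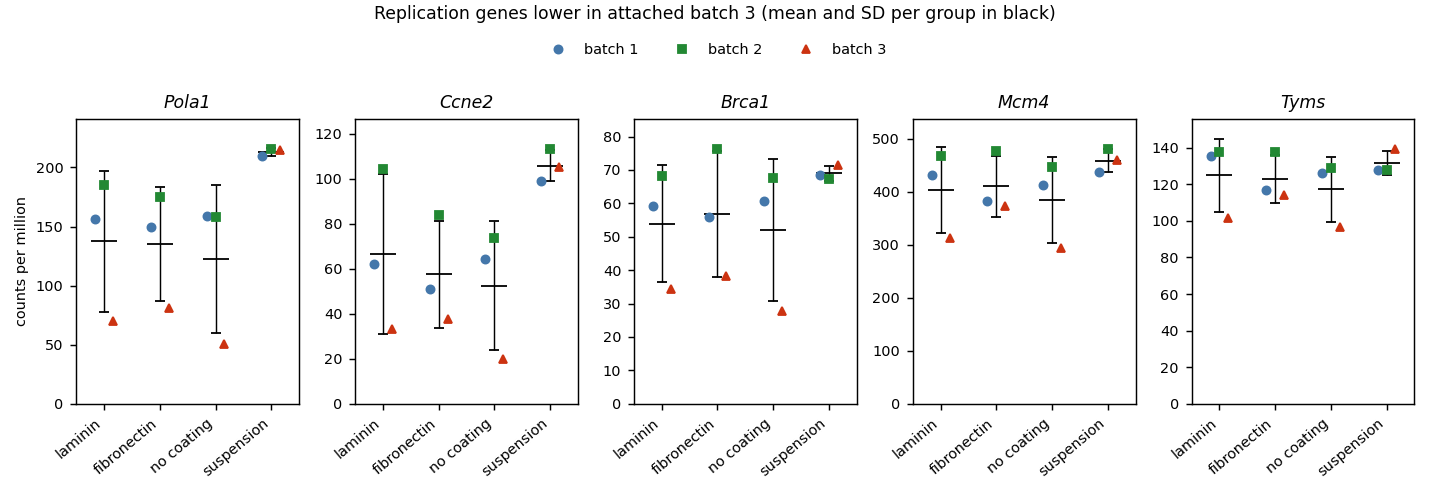
CPM (vertical axes, from 0) of the 5 genes lower in attached batch 3, by group, with symbols for batches and black bars for the group mean and SD (n = 3). The triangle of batch 3 is the lowest point in each attached group and lies inside or above the range of the other libraries in suspension.

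Between surfaces, no replication gene passed. Laminin against fibronectin called 0 of 40 genes, beside 0.00998% of all genes higher and 0.14% lower, with log2 fold changes between -0.14 and 0.18. Fibronectin against no coating called 0 of 40, beside 0.17% higher and 0.00998% lower, with log2 fold changes between -0.16 and 0.15. Laminin against no coating called 0 of 40, beside 0% in each direction, with log2 fold changes between -0.14 and 0.32. By edgeR none of the 40 had an unadjusted p below 0.05 in any of the 3 comparisons, and DESeq2 gave the same counts of 0, beside 0.0399% of all genes higher and 0.409% lower on laminin than on fibronectin, 0.409% and 0.12% on fibronectin than without coating, and 0% in each direction on laminin than without coating. With the batch as a block on the 9 attached libraries, again none was called. The block on all 12 libraries called 0 of 40 as well, beside 0.0399% of all genes higher and 0.369% lower on laminin than on fibronectin, 0.389% and 0.0798% on fibronectin than without coating, and 0% in each direction on laminin than without coating. In the fit on 9 libraries, 5, 2 and 1 of the 40 genes had an unadjusted p below 0.05. They were Mcm3, Mcm5, Gins2, Rfc2 and Fen1 for laminin against fibronectin. For fibronectin against no coating they were Rfc2 and Ccne1, and for laminin against no coating Ccne1. The smallest adjusted p among them was 0.230, for Ccne1 on fibronectin against no coating (edgeR with the block, Benjamini-Hochberg). Shares of all genes in this fit are not given, so these counts single out no gene of the list. A missed threshold does not show that the surfaces act alike.

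The signs within batches were less even than the calls. On laminin 22 genes were higher than without coating in all 3 batches and 2, Cdt1 and Ccne1, were lower in all 3, beside 23.6% and 13.8% of all genes. Against fibronectin 17 were higher on laminin in all 3 batches and 2, Orc1 and Prim2, lower, beside 25.9% and 13.5%. On fibronectin 2, Rpa2 and Rpa3, were higher than without coating in all 3 batches and 10 lower, beside 13% and 20.5%. The median ratios were small, 0.04, 0.04 and 0.07 for laminin over no coating in batches 1, 2 and 3 and 0.08, 0.08 and 0.07 for laminin over fibronectin, beside medians between 0.02 and 0.05 for all genes. With TMM-scaled totals, 17 genes were higher and 4 lower on laminin than without coating (18.4% and 16.6% of all genes), 14 higher and 3 lower than on fibronectin (16.7% and 19.7%), and 3 higher and 7 lower on fibronectin than without coating (16.3% and 15.6%). Among all genes this scaling turned the balance round, to more lower than higher on laminin than on fibronectin and to more higher than lower on fibronectin than without coating.

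Upstream of the list, 21 of 30 further G1/S regulators were tested. Ccnd1, cyclin D1, which couples growth signals to the G1 kinases, fell on every surface. It stood at 1066, 1157 and 1344 CPM on laminin, at 1165, 1261 and 1396 CPM on fibronectin, at 1069.9, 1213 and 1360.1 CPM without coating, and at 1597, 1965 and 1955 CPM in suspension, with no overlap. Log2 fold changes were -0.63 ± 0.11, -0.50 ± 0.11 and -0.58 ± 0.11 (edgeR, Benjamini-Hochberg adjusted p = 0.00464, 0.0210 and 0.00867), and the fibronectin call was lost without suspension 2 or 3 or fibronectin 1 or 2, with an adjusted p of up to 0.0876. Tfdp2, a partner of the E2F factors, was called higher on fibronectin (log2 fold change 0.49 ± 0.13, adjusted p = 0.0445, edgeR). It lost the call on leaving out any 1 of the 6 libraries, up to 0.136. Its mean was 30.9 ± 2.42 CPM on fibronectin, 29.5 ± 2.45 CPM on laminin, 26.8 ± 4.34 CPM without coating and 22.6 ± 0.771 CPM in suspension. Every laminin library lay above every suspension library. It was not called on laminin, without coating or between surfaces. The other regulators tested passed on no surface. In this fit 6.96%, 3.06% and 4.1% of all genes were lower on laminin, on fibronectin and without coating. Those higher made up 12.1%, 6.61% and 8.48%. With the batch as a block, 5, 3 and 3 of the 21 were higher and 3, 1 and 4 lower on laminin, on fibronectin and without coating, beside the shares of all genes with the block given above.

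Of 40 further replication and S phase genes, 2 fell on laminin, 2 on fibronectin and 1 without coating, and none rose. Of all tested genes, 6.96%, 3.06% and 4.1% were lower in the same fit and 12.1%, 6.61% and 8.48% higher. Orc5, a subunit of the origin recognition complex, averaged 31.4 ± 1.14 CPM on laminin, 31.5 ± 1.13 CPM on fibronectin, 31.8 ± 1.79 CPM without coating and 41.1 ± 1.72 CPM in suspension (SD, n = 3 each). All attached libraries lay below suspension, batch 3 included. For Orc5 the log2 fold changes were -0.39 ± 0.07, -0.35 ± 0.07 and -0.35 ± 0.07 (edgeR, Benjamini-Hochberg adjusted p = 0.00644, 0.0156 and 0.0125), and the fibronectin call was lost without suspension 2 or fibronectin 1 or 3 (up to 0.0593). Recql4, a helicase of the RecQ family, fell on laminin and fibronectin, to 30.5 ± 3.93 and 30.7 ± 2.56 CPM, against 48.1, 36.8 and 41.2 CPM in the suspension libraries (-0.46 ± 0.11 and -0.42 ± 0.11, adjusted p = 0.0171 and 0.0380, edgeR). Without coating it averaged 32.1 ± 2.71 CPM, with every library below every suspension library, and was not called. The laminin call was lost without suspension 1 or 3 or laminin 1 (up to 0.0564), and the fibronectin call in 5 of 6 such fits, all but that without suspension 2 (up to 0.124). In attached batch 3, 13 of these 40 genes lay below and 1 above the attached libraries of batches 1 and 2, with a median log2 ratio of -0.19; of 10009 genes with counts in every library, 2029 lay below and 2033 above, with a median of 0.08. On laminin, on fibronectin and without coating, the fit with the block called 4, 3 and 2 of the 40 higher and 12, 7 and 14 lower. Of all genes it called 22.4%, 16.6% and 20.1% higher and 20.8%, 12.1% and 18.7% lower. Without batch 3 the counts were 1, 1 and 1 higher and 6, 6 and 5 lower. The shares of all genes there were 8.65%, 4.36% and 5.32% higher and 10.3%, 4.94% and 6.72% lower. The differences from all genes were not tested.

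The 17 tested genes of G2 and mitosis had a median log2 fold change below 0 on each surface, -0.29 on laminin, -0.25 on fibronectin and -0.26 without coating. On laminin Ube2c, the ubiquitin-conjugating enzyme of the anaphase-promoting complex, and Aurka, the centrosomal Aurora kinase, fell, beside 6.96% of all genes. Ube2c averaged 107 ± 6.33 CPM on laminin and 138 ± 0.316 CPM in suspension, and Aurka 133 ± 12.1 and 160.0 ± 2.61 CPM (log2 fold changes -0.36 ± 0.08 and -0.27 ± 0.08, Benjamini-Hochberg adjusted p = 0.0136 and 0.0341, edgeR). Ube2c lost the laminin call without suspension 2 or 3 (up to 0.0510) and Aurka in 5 of 6 such fits, all but that without laminin 3 (up to 0.105). None passed on fibronectin or without coating by edgeR, beside 3.06% and 4.1% of all genes lower. There 6 and 7 of the 17 had an unadjusted p below 0.05, with the share of all genes at that threshold not given. DESeq2 called 4, 3 and 3 of the 17 lower on laminin, on fibronectin and without coating, beside 9.63%, 4.79% and 6.91% of all genes. With batch 3 left out edgeR called 11, 10 and 9 lower, beside 10.3%, 4.94% and 6.72% of all genes, and with the batch as a block 10, 7 and 9, beside 20.8%, 12.1% and 18.7%. CCAAT was in 12 of the 14 windows of these genes (85.7%) and an E2F octamer in 1 (7.14%).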

How the data were processed

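Total RNA of the 12 libraries was made into stranded libraries (TruSeq Stranded Total RNA LT), per the labels' protocols. The authors deposited raw counts of reads, 1 table a library with Entrez identifiers per the file headers. Build rn4 is named in the submitters' processing notes. For the aligner, the counter and its strand setting, names and versions were not given in the sources used here. It cannot be judged how reads of overlapping antisense genes or near-identical copies were assigned. Symbols came from RefSeq (GRCr8; 16761 of 16924 identifiers matched), as did promoter windows; rn4 coordinates were not used.

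The counts were tested two-sided with edgeR 4.0.16 (R 4.3.3), with Benjamini-Hochberg adjustment over 10020 genes. The fit used glmQLFit and glmQLFTest, TMM factors, filterByExpr and a means model of 4 groups (8 residual degrees of freedom). The method was tested on simulated counts that held no batch shift, so that test does not cover the batches of these data. SEs are the log2 fold change divided by the square root of F. CPM uses library totals. The replicate number is the labelled batch and so pairs the libraries. Same-batch deviations correlated with a median of 0.409 over 18 pairs (lowest 0.036), against -0.124 over 36 other pairs. Deviations cancel within each group, so these medians are not independent of each other. Alternatives were the replicate block, fits without batch 3, without each library, with only the 2 groups compared, with library size only or no filter (13128 genes), and DESeq2 1.42.0. Libraries of 1 group are not stated to be separate cultures. The members and lists were chosen with earlier results of these data known. Values were given library by library for genes called in the main test, then for genes called with the block until 8 were named, and always for Ccne1, Ccne2, E2f1, Pcna, Mcm2 and Cdc6; Pola1 and Mcm4 were added after their values were seen.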

Additional observations from a re-analysis of the deposited data

How the results depend on the processing

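The lowest library count of the 40 genes was 330; what limited the number of calls was not tested. Genes higher on laminin, 4 in the report, numbered 16 with the replicate block, 2 without batch 3, 2 with library size only, and 0 to 7 on leaving out 1 library; those lower, 1 in the report, numbered 3 with the block, 0 with only the 2 groups compared, library size only or no filter, and 0 in every fit without 1 library. Genes higher on fibronectin (2) numbered 9 with the block, 0 without batch 3, with library size only or with no filter, and 0 to 2 without 1 library, and those lower (0) numbered 3 with the block. Genes higher without coating (1) numbered 13 with the block, 2 by DESeq2, 0 without batch 3, with only the 2 groups, library size only or no filter, and 0 to 4 without 1 library; those lower (0) numbered 4 with the block, 1 without batch 3 and 1 by DESeq2. The highest counts without 1 library came from leaving out laminin 1 or no coating 1, and leaving out suspension 3 gave 0 on every surface. Shares of all genes called with the block, without batch 3 and by DESeq2 are given above. For the other settings they are not given, so whether all genes moved likewise was not tested. Between surfaces every count stayed 0 in every setting run. With TMM-scaled CPM, chosen after seeing the data, genes higher in all 3 batches numbered 19 on fibronectin (11 in the report) and 17 without coating (11), and those lower on laminin than without coating 4 (2); the cause was not tested. Among the named genes no called change took the opposite sign. Among uncalled members, Tyms turned positive without batch 3 on every surface, and Rfc5, Rfc2, Lig1, Pola2, Chaf1b, Uhrf1 and Brca1 changed sign on at least 1 surface. With library size only, Pole and Rpa3 on fibronectin also changed sign, to -0.007 and -0.031 from 0.028 and 0.004. By DESeq2, Rpa3 changed sign on laminin and on fibronectin, to -0.007 and -0.006. Over the named genes, called comparisons kept the call in 41 alternative fits and lost it in 55, and uncalled ones gained a call in 37 and stayed uncalled in 371. For the 40 genes the block fit changed no call beyond those named in the report.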
